A study of Mus musculus with 15 samples.

Results

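The 33 genes described here encode NRF2 and its regulators and enzymes of the glutathione, thioredoxin, heme and NADPH systems of mouse cells. They were chosen as a list of gene symbols, and each symbol was matched to 1 of the 78317 Ensembl gene identifiers of the deposited count table, so all 33 were found. RNA was sequenced from MH-S cells, a line of mouse alveolar macrophages transformed with SV40, in 5 groups of 3 wells after 24 h. M0 cells received medium alone. M1 cells received LPS at 1 µg/mL with IFN-γ at 20 ng/mL, and M2 cells received IL-4 at 20 ng/mL. CaP and SiO2 cells received microrods with a nanoparticulate calcium phosphate or silica framework at 0.1 mg/mL, in a volume of 200 µL. Cells of 1 passage filled all wells, and the 3 wells of a microrod type differed in the particle batch they received. Replicate spread therefore includes wells and batches of particles, whereas cell passages were not sampled.

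NRF2, encoded by Nfe2l2, is a transcription factor that KEAP1 holds in the cytoplasm and marks for degradation. When oxidants or electrophiles modify KEAP1, NRF2 enters the nucleus, pairs with a small MAF protein and binds antioxidant response elements, whereas BACH1 competes for these sites. Its known targets make glutathione, reduce thioredoxin and peroxiredoxins, degrade heme and supply NADPH, the reductant on which both thiol systems draw. NRF2 activity is set largely by protein stability, which RNA levels do not measure.

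The total count of a library was between 8459643 and 68750050. Levels are CPM, read counts normalized to library size with edgeR's TMM factors. The text gives differences as log2 fold changes with the standard error (SE) of edgeR's quasi-likelihood model. A gene was called at a Benjamini-Hochberg adjusted p below 0.05 over all genes tested and an absolute log2 fold change above 0.5. Comparisons with M1 and M2 came from a model of all 15 libraries (16654 genes tested) and the microrod comparisons from a model of the 9 M0, CaP and SiO2 libraries (16621 genes tested). Where no library of a group held more than 3 counts of a gene, the gene was taken to be at the floor. The cells had 7 of 8 macrophage markers above 1 CPM in every group, but only 1 or 2 of 6 alveolar macrophage markers, and Siglecf, Car4 and Chil3 reached at most 0.478 CPM in every library. M0 replicate 1 stood apart in that Actb took 6.91% of its counts, against 1.79% to 4.52% for the most abundant gene of the other libraries. It was the lowest M0 library for 21 of the 33 redox genes, whereas it was the lowest for 37.1% of all genes tested. For the 32 or 33 redox genes tested against M0, leaving it out moved no called value by over 1.5 times, but it moved 13 of the 19 values not called in M1 by that much and 21 of the 32 in each of M2, CaP and SiO2. Calls and the values that turn on it are given without it as well, except where stated. Fewer cells of a kind and less RNA per cell cannot be told apart in bulk RNA.

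Most redox genes had more reads than the median gene. Their median mean level was 77.7 CPM against 9.33 CPM over all genes tested, and 27 of 33 were above that overall median. These levels are not corrected for transcript length, so they do not rank the genes by abundance. Together they took 0.469% to 0.657% of the counts in M0, 0.784% to 0.831% in M1 and 0.548% to 0.623% in M2. The 0.469% was that of M0 replicate 1, and the other M0 libraries had 0.626% and 0.657%. The share was 0.664% to 0.702% in CaP and 0.660% to 0.742% in SiO2 libraries. The M1 libraries did not overlap with any other group. Prdx1 alone, a peroxiredoxin that reduces hydrogen peroxide, made up 22.0% to 38.8% of the counts of the list. Without Prdx1 the share was 0.479% to 0.543% in M1, above M0 (0.334% to 0.468%) but overlapping with M2, CaP and SiO2, which reached up to 0.506%.

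Antioxidant response elements share a short core that was looked for near the annotated gene starts, since many of these genes are known NRF2 targets. The core TGACNNNGC was searched on both strands in RefSeq windows of 300 bases, 250 before and 50 after each start, on mouse build GRCm38.p6. Of the 33 genes, 28 had such a window, and Gclc, Gsr, Hmox1, Abcc1 and Prdx6 had none. A core was present in 11 of the 28 genes (39.3%), and in 13.99% of all genes with a window. Counted by window, 28.2% of 39 windows of the redox genes and 12.4% of all 32851 windows held it. Among genes with a window, 5 of the 11 that were higher in M1 held a core, and so did 6 of the other 17. A match describes these letters and not a site bound in these cells. Of the genes with a core, 6 are shown on the strand of the gene with the core in capitals, namely the 5 that were higher in M1 and Nfe2l2 itself. Cores not shown are those of Mgst1, which was called lower in M1, and of Blvra, G6pdx, Mafg and Pgd, which were not called there.

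Prdx1, chr4:116685426-116685514, plus strand: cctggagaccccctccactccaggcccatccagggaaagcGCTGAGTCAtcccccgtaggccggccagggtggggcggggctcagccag
Gclm, chr3:122245383-122245471, plus strand: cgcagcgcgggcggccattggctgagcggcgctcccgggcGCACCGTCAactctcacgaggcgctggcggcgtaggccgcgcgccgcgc
Txnrd1, chr10:82859074-82859162, plus strand: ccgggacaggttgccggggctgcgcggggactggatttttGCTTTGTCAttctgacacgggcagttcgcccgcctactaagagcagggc
Me1, chr9:86695912-86695960, minus strand: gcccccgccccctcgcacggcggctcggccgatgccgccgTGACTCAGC
Srxn1, chr2:152105544-152105568, plus strand: agtgggcaGCTAGGTCAgagtgaga
Nfe2l2, chr2:75704855-75704913, minus strand: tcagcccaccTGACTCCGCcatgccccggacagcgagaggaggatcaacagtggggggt

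The cores of Prdx1 and Me1 are the same 9 bases, TGACTCAGC, read on opposite strands relative to the gene. In Gclm, Txnrd1 and Srxn1 the core also reads on the strand opposite to the gene, and in Nfe2l2 on that of the gene. The core begins at position -133 from the start in Prdx1, -134 in Gclm, -92 in Txnrd1, -6 in Me1 and -240 in Nfe2l2, all before the start. The 9 bases of the Me1 core run across the start, and the core of Srxn1 lies past the start, at position 29.

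M1 polarization was compared with M0 first. LPS with IFN-γ raised 12 of the 33 redox genes and lowered 2, so 14 were called, whereas 14.1% of all genes tested were called (9.7% higher and 4.37% lower). The genes that rose were Blvrb, Nqo1, Slc7a11, Gclm, Gsr, Glrx, Txnrd1, Srxn1, Prdx1, Prdx3, Prdx5 and Me1, and those that fell were Mgst1 and Txnip. Nqo1 is counted here, but it passed edgeR's filter on low counts only through its M1 libraries, which favoured its call. The median log2 fold change of the list was 0.30 with Nqo1 at its fitted value or at the bound given for it, against -0.01 over all genes tested. The M1 libraries lay above all M0 libraries for 14 of 33 genes, against 20.2% of all genes tested, and below them for 5, against 12% of all. Without M0 replicate 1, 11 of the 14 calls were made (10 higher and 1 lower), against 10.3% of all genes, and those of Slc7a11, Mgst1 and Prdx3 were not. The median of the list was then 0.21, against -0.01 over all genes tested. Mitochondrial transcripts took 0.888% to 1.04% of the counts in M1, less than in any M0 library (1.48% to 2.18%), and 1.03% to 2.13% in the other groups. Their part in the result was not tested.

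Nfe2l2 and its partners were not among the genes called. The level of Nfe2l2 was 110, 76.8 and 84.6 CPM in M0 and 74.4, 68.0 and 64.2 CPM in M1. Every M1 library was below every M0 library, with a log2 fold change of -0.39 (SE 0.17, adjusted p = 0.144, edgeR). For Keap1, the inhibitor of NRF2, the levels were 55.8, 34.5 and 41.1 CPM in M0 and 34.5, 33.4 and 30.2 CPM in M1 (log2 fold change -0.43, SE 0.22, adjusted p = 0.223, edgeR). M0 replicate 1 was the highest M0 library for both genes, and without it the log2 fold changes were -0.25 for Nfe2l2 (adjusted p = 0.442, edgeR) and -0.23 for Keap1 (adjusted p = 0.634, edgeR). The M0 libraries of Keap1 varied more among themselves than those of M1. Mafg, a small MAF partner of NRF2, had a log2 fold change of 0.76 (adjusted p = 0.193) and Bach1, the competing repressor, one of -0.62 (adjusted p = 0.141), and in both the libraries of the groups overlapped. Mafg was called (0.68, adjusted p = 0.0300, edgeR) with the replicate number as a block in a model of the 6 libraries, in which 16.9% of all genes were called. This model was added after seeing the data, and the labels do not show that same-numbered wells were paired.

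Among the genes of heme degradation, only Blvrb was called. Blvrb, a biliverdin and flavin reductase, was at 34.6, 52.0 and 50.3 CPM in M0 and at 137, 171 and 180 CPM in M1. All M1 libraries were thus above all others, and the gene was 3.58-fold higher (log2 fold change 1.84, SE 0.18, adjusted p = 1.37e-05, edgeR). Hmox1, the inducible heme oxygenase that opens the heme ring, was at 54.3, 110 and 81.1 CPM in M0 and at 96.4, 132 and 158 CPM in M1. Its lowest M1 library was below its highest M0 library, and the log2 fold change of 0.66 (SE 0.25, adjusted p = 0.107, edgeR) was not called. Without M0 replicate 2 it was 0.93 and was called, and without M0 replicate 1 it was 0.40 (adjusted p = 0.384, edgeR). Blvra, the other biliverdin reductase, had a log2 fold change of -0.33 (adjusted p = 0.351).

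Nqo1, a quinone reductase often used to read NRF2 activity, was nearly silent in MH-S cells. It had 3, 1 and 1 counts in the M0 libraries and 25, 23 and 15 counts in M1, or 2.15, 1.57 and 1.46 CPM. M0 was at the floor, so the mean M1 level of 1.73 CPM was at least 4.97-fold higher than the largest floor of an M0 library, 0.347 CPM. Nqo1 passed the filter on low counts only through M1, so its p-value is not given. The counts were 1, 2 and 2 in M2, 8, 3 and 11 in CaP and 3, 2 and 2 in SiO2 libraries. Only the M1 libraries reached 1 CPM. Osgin1, an oxidative stress-induced growth inhibitor, had a log2 fold change of 0.04 and Abcc1, an exporter of glutathione conjugates, one of 0.17, and neither was called.

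The steps that feed glutathione moved unequally. Slc7a11, the light chain of the cystine importer xCT, was at 27.4, 33.9 and 11.0 CPM in M0 and at 90.02, 91.0 and 95.1 CPM in M1. The M1 libraries were nearly alike and all above M0, in which replicate 3 was far below the others (log2 fold change 1.91, SE 0.49, adjusted p = 0.0176, edgeR). The call was lost without M0 replicate 1 or 3, at log2 fold changes of 1.99 and 1.58. Gclm, the modifier subunit of glutamate-cysteine ligase, which catalyses the rate-limiting step of glutathione synthesis, was at 24.6, 13.8 and 15.2 CPM in M0 and at 50.4, 37.5 and 41.5 CPM in M1. The groups did not overlap (log2 fold change 1.25, SE 0.35, adjusted p = 0.0289, edgeR), but the call was lost without M0 replicate 2 or 3 or any 1 of the M1 libraries, at log2 fold changes from 1.09 to 1.35. Gclc, the catalytic subunit of the same enzyme, went from 5.44 to 6.76 CPM in M0 to 3.62 to 4.04 CPM in M1 (log2 fold change -0.72, SE 0.29, adjusted p = 0.122, edgeR), so that its M1 libraries were all below M0 without a call. Gsr, the reductase that regenerates glutathione with NADPH, was at 22.3, 19.1 and 19.2 CPM in M0 and at 82.7, 71.0 and 58.6 CPM in M1. It was 3.49-fold higher, and every M1 library was above every library of the other groups (log2 fold change 1.80, SE 0.20, adjusted p = 4.18e-05, edgeR).

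**Figure D1:**
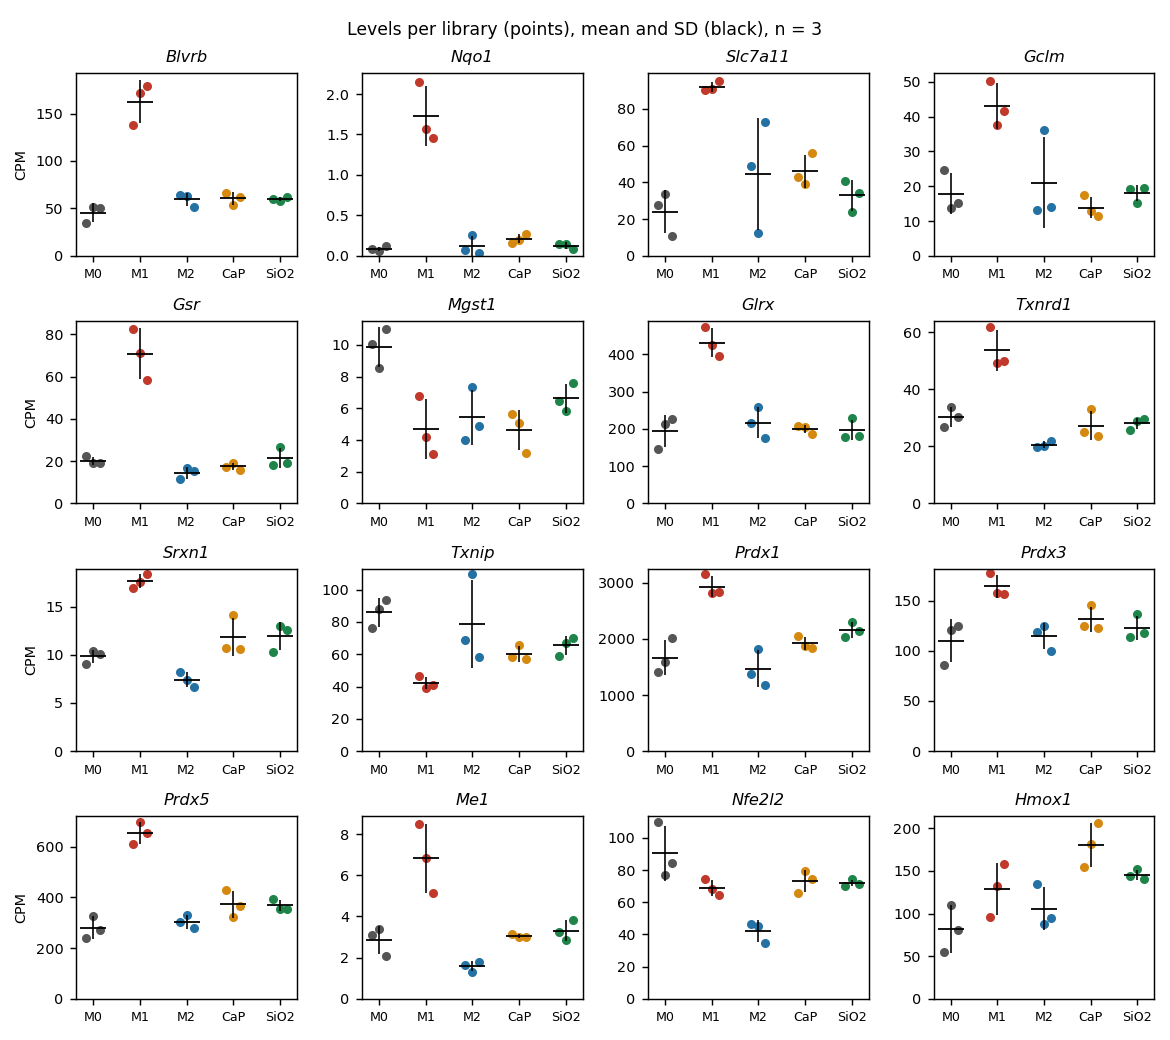
Levels in CPM (vertical axes, linear from 0) of the 14 redox genes called in M1 against M0 and of Nfe2l2 and Hmox1, by group (horizontal axes). Points are libraries and black marks the mean and SD of 3 libraries. In Blvrb, Nqo1, Gsr, Glrx and Prdx5 the M1 points lie apart from all others, whereas Nfe2l2 is lowest in M2 (34.4 to 46.7 CPM) and Hmox1 highest in CaP (155 to 206 CPM, where M1 reaches 158 CPM).

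Of the enzymes that use glutathione, Glrx and Mgst1 were called, in opposite directions. Glrx, a glutaredoxin that removes glutathione from protein thiols, was at 145, 212 and 226 CPM in M0 and at 473, 424 and 396 CPM in M1. It was 2.22-fold higher with no overlap (log2 fold change 1.15, SE 0.19, adjusted p = 0.00105, edgeR). Mgst1, a microsomal glutathione transferase and peroxidase, was at 10.0, 8.52 and 11.0 CPM in M0 and at 6.79, 4.17 and 3.11 CPM in M1. The M1 libraries were all below M0 (log2 fold change -1.06, SE 0.31, adjusted p = 0.0344, edgeR), and the call was lost without M0 replicate 1 or 3, without M1 replicate 2 or 3 and in a model of the 6 libraries compared. The glutathione peroxidases Gpx1 and Gpx4 and the transferase Gstm1 had log2 fold changes of -0.42, 0.15 and 0.07 and were not called.

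In the thioredoxin system, the enzymes that recycle thiols rose while Txn1 was not called. Txnrd1, the selenoenzyme that reduces thioredoxin with NADPH, was at 26.6, 33.8 and 30.3 CPM in M0 and at 61.8, 49.1 and 50.1 CPM in M1 (log2 fold change 0.83, SE 0.17, adjusted p = 0.00482, edgeR). Srxn1, which repairs overoxidized peroxiredoxins, was at 9.06, 10.3 and 10.1 CPM in M0 and at 16.9, 17.6 and 18.4 CPM in M1 (log2 fold change 0.85, SE 0.18, adjusted p = 0.00514, edgeR). In both genes all M1 libraries were above all libraries of the other 4 groups. The call of Srxn1 was lost without a filter on low counts (adjusted p = 0.0822, edgeR). Txnip, which binds and inhibits thioredoxin, was at 76.3, 87.8 and 93.8 CPM in M0 and fell to 46.3, 39.1 and 40.8 CPM in M1. It was 2.04-fold lower (log2 fold change -1.03, SE 0.21, adjusted p = 0.00431, edgeR) and was called without each library in turn. Txn1, thioredoxin itself, had a log2 fold change of -0.07 with a 95% interval from -0.45 to 0.31.

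Of the 5 peroxiredoxins, 3 rose. Prdx1 was at 1403, 1591 and 2010 CPM in M0 and at 3155, 2819 and 2831 CPM in M1, so it was 1.76-fold higher (log2 fold change 0.82, SE 0.17, adjusted p = 0.00599, edgeR). Prdx5, a peroxiredoxin found in mitochondria and peroxisomes, was at 238, 328 and 273 CPM in M0 and at 610, 696 and 655 CPM in M1, or 2.34-fold higher (log2 fold change 1.23, SE 0.15, adjusted p = 1.18e-04, edgeR). Neither overlapped with any other group. Prdx3, the mitochondrial peroxiredoxin, was at 85.4, 120 and 125 CPM in M0 and at 177, 158 and 157 CPM in M1 (log2 fold change 0.58, SE 0.17, adjusted p = 0.0325, edgeR). This call was the least stable, and without M0 replicate 1 the log2 fold change was 0.40 and not called. It was also lost without each M1 library in turn, without a filter on low counts and in a model of the 6 libraries compared, with or without the replicate number as a term. Prdx2 and Prdx6 had log2 fold changes of -0.12 and -0.05. Mice carry processed copies of several of these genes, Prdx1, Gpx4 and Txn1 among them, and how the counting split reads between such copies was not tested.

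Among the enzymes that supply NADPH, only Me1 was called. Me1, the cytosolic malic enzyme, was at 3.11, 3.38 and 2.08 CPM in M0 and at 8.51, 6.84 and 5.15 CPM in M1. It was 2.32-fold higher, and M1 lay above all other groups (log2 fold change 1.22, SE 0.24, adjusted p = 0.00344, edgeR). The pentose phosphate enzymes G6pdx, Pgd, Taldo1 and Tkt had positive log2 fold changes from 0.18 to 0.67 with adjusted p-values from 0.105 to 0.643 (edgeR), so none passed. G6pdx, the entry enzyme of that pathway, was called (0.62, adjusted p = 0.0274, edgeR) in the model of the 6 libraries with the replicate block. That model was added after seeing the data, and its pairing is not given by the labels.

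**Figure D2:**
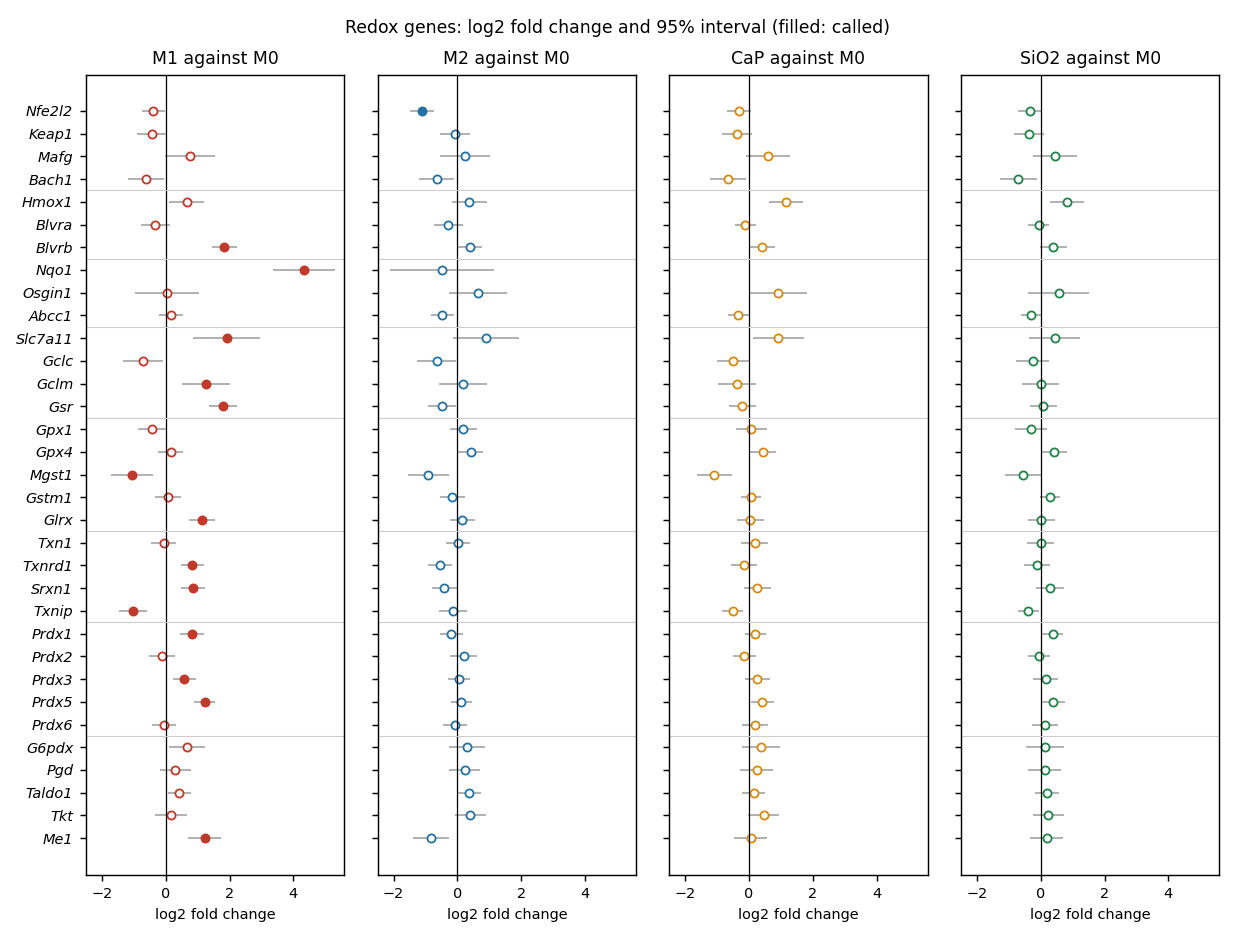
Log2 fold change (horizontal axes) of each redox gene (rows, ordered by role, grey lines between roles) in M1, M2, CaP and SiO2 against M0, with the 95% interval of edgeR's model as bars and called genes as filled points. M1 holds 14 filled points, M2 only Nfe2l2, and CaP and SiO2 none, while Nqo1 has no point for the microrods because it did not pass the count filter of that model and its M1 point depends on few M0 counts.

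Levels of different genes can be compared only per length of transcript. On that scale, in CPM per kilobase, Prdx1 led in M0 with a mean of 727, followed by Txn1 with 431 and Gpx4 with 363, and Nqo1 was last with 0.0558. In M1, Prdx1 was at 1279 and still first, and Prdx5 moved from the sixth to the second place. Blvrb moved from place 16 to 9 and Gsr from 24 to 19. The single libraries of neighbours in this order often overlap, as the plot by transcript length shows.

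**Figure D3:**
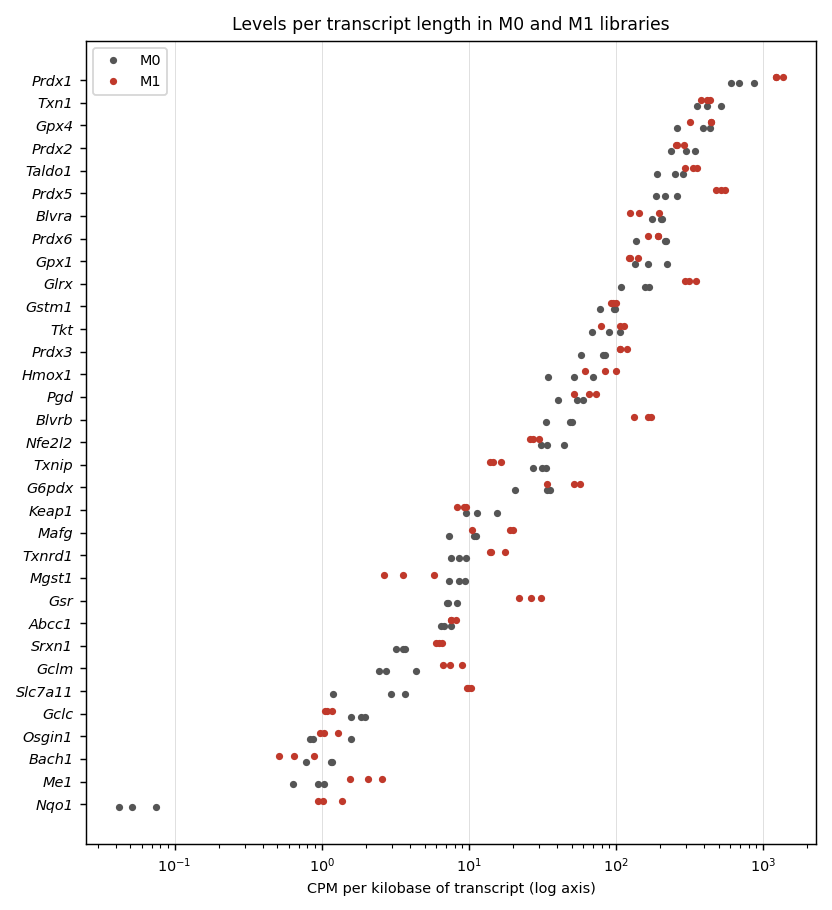
CPM per kilobase of transcript (horizontal axis, logarithmic) of the 33 redox genes in the 3 M0 (grey) and 3 M1 (red) libraries, ordered by the M0 mean. Red points lie to the right of grey ones for Blvrb, Gsr, Glrx, Prdx1 and Prdx5 and to the left for Txnip and Mgst1, and Nqo1 is lowest in M0.

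M2 polarization gave another picture. IL-4 called 1 of the 33 genes, Nfe2l2, against 4.13% of all genes tested (2.13% lower). Nfe2l2 was at 46.7, 45.4 and 34.4 CPM in M2, below every library of the other 4 groups, and 2.15-fold lower than in M0 (log2 fold change -1.11, SE 0.17, adjusted p = 0.00192, edgeR). The call was made without each library in turn, with log2 fold changes from -1.21 to -0.96, and was lost in a model of the 6 libraries compared. Keap1, at 38.6, 54.4 and 33.9 CPM in M2, overlapped with M0 (log2 fold change -0.07, 95% interval -0.53 to 0.40).

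No other redox gene passed in M2, and the genes raised in M1 did not share a direction there. Of the 12 genes that rose in M1, Nqo1 was at the floor in M0 and M2. Of the other 11, 6 had positive and 5 negative log2 fold changes in M2, from -0.83 to 0.90, with a median of 0.05. Without M0 replicate 1, 3 of the 11 were positive, with a median of -0.12. Both comparisons share the M0 libraries. The M2 libraries lay below all M0 libraries for 8 of 33 genes, against 8.2% of all genes tested, and above them for 1, against 7.03% of all. The 8 were Nfe2l2, Bach1, Abcc1, Gsr, Mgst1, Txnrd1, Srxn1 and Me1. Txnrd1 was at 19.7, 20.0 and 22.0 CPM in M2 with a log2 fold change of -0.55 (adjusted p = 0.0976, edgeR), and Me1 at 1.64, 1.32 and 1.79 CPM with one of -0.83 (adjusted p = 0.0964, edgeR). The median over the list was 0.01, against 0.07 over all genes tested, and without M0 replicate 1 it was -0.12, against 0.07. M2 replicate 2 differed most from its group for several genes. It held 36.1 CPM of Gclm against 13.2 and 13.9 CPM, and 12.5 CPM of Slc7a11 against 48.8 and 73.0 CPM. With DESeq2, 2 genes were called, Nfe2l2 and Txnrd1, both lower, against 5.98% of all genes. Without M2 replicate 2, 5 genes were called with edgeR, namely Nfe2l2, Abcc1, Gclc and Mgst1 lower and Slc7a11 higher, against 7.95% of all genes. Hmox1 was at 135, 87.4 and 94.8 CPM in M2, overlapping with M0, and Mgst1 at 4.03, 7.37 and 4.88 CPM.

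When the polarized groups were set against each other, 13 of the 33 genes were called, 12 higher and 1 lower in M1 than in M2, against 16.1% of all genes tested (10.6% higher and 5.46% lower). Gsr was 4.89-fold higher in M1 (log2 fold change 2.29, SE 0.21, adjusted p = 3.71e-06, edgeR) and Me1 4.12-fold (log2 fold change 2.04, SE 0.25, adjusted p = 6.08e-05, edgeR). Nqo1, at the floor in M2 too, was at least 4.37-fold higher in M1. Txnrd1 was 2.60-fold, Srxn1 2.40-fold, Blvrb 2.74-fold, Prdx5 2.15-fold, Prdx1 2.00-fold and Glrx 1.99-fold higher, with adjusted p-values from 7.49e-05 to 0.00246 (edgeR). In each of them the 3 M1 libraries were above the 3 M2 libraries. Gsr was at 11.4, 16.98 and 15.2 CPM in M2 and Srxn1 at 8.19, 7.37 and 6.65 CPM. Blvrb was at 64.0, 63.3 and 51.2 CPM, Glrx at 216, 259 and 177 CPM. Prdx1 was at 1383, 1829 and 1186 CPM and Prdx5 at 303, 332 and 277 CPM. The M2 levels of Gsr and Srxn1 were all below M0, whereas those of Glrx, Prdx1 and Prdx5 overlapped with it. Nfe2l2 was 1.64-fold higher in M1 than in M2 (adjusted p = 0.0109, edgeR), but this call was lost without M2 replicate 3, at a log2 fold change of 0.58. It was also lost without a filter and with only the 6 libraries compared. Abcc1, at 51.2, 46.2 and 43.9 CPM in M0, 55.8, 51.5 and 51.4 CPM in M1 and 31.8, 43.7 and 27.3 CPM in M2, had a log2 fold change of 0.64 (adjusted p = 0.0210, edgeR). Its call was lost without any 1 of the M1 libraries, without M2 replicate 1 or 3, without a filter and with only the 6 libraries compared. Prdx3, at 118, 125 and 99.8 CPM in M2, had one of 0.52 (adjusted p = 0.0458, edgeR) and was called in none of the 6 fits with 1 library left out. Txnip, at 69.1, 110 and 58.0 CPM in M2, was lower in M1 (log2 fold change -0.90, SE 0.21, adjusted p = 0.00868, edgeR). With only the 6 libraries compared, the calls of Prdx1 and Txnip were lost (adjusted p = 0.0502 and 0.0863, edgeR). Gclm and Slc7a11, called against M0, had adjusted p-values of 0.0520 and 0.168 against M2. Gclm was called there with DESeq2 (adjusted p = 0.0446) and without M2 replicate 2 (edgeR), and both were called by edgeR without a filter on low counts (adjusted p = 0.00565 and 0.00573). DESeq2 also called Gpx1, as lower in M1 (log2 fold change -0.64, adjusted p = 0.0367). Over all genes it called 1763 higher and 1092 lower of 16631.

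CaP microrods were compared with M0 in the model of 9 libraries. None of the 32 redox genes tested was called, against 0.409% of all genes tested by edgeR, and 9 had an unadjusted p below 0.05, against 18% of all. With DESeq2, which called 4.15% of the genes for which it gave an adjusted p, 3 were called. These were Hmox1 (log2 fold change 1.14, adjusted p = 0.00249), Mgst1 (-1.09, adjusted p = 0.0103) and Txnip (-0.52, adjusted p = 0.0417). The list's median log2 fold change was 0.11 with edgeR, against 0.06 over all genes tested. Without M0 replicate 1 it was -0.03, against 0.05, so the list no longer lay above all genes.

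Hmox1 had the largest positive value. Its levels were 155, 181 and 206 CPM in the CaP libraries and 54.3, 110 and 81.1 CPM in M0, with no overlap. The log2 fold change was 1.15 with a 95% interval from 0.62 to 1.68, but the adjusted p of 0.0842 (edgeR) missed the threshold. It was called without M0 replicate 2 (log2 fold change 1.43, adjusted p = 0.0328), where 1.96% of all genes were called, and without CaP replicate 1 (1.23, adjusted p = 0.0419), where 4.47% were, and it was 0.89 (adjusted p = 0.212) without M0 replicate 1. Mgst1, at 5.62, 5.06 and 3.21 CPM in CaP, was below all M0 libraries (log2 fold change -1.09, SE 0.25, adjusted p = 0.103, edgeR) and was called without CaP replicate 1. Txnip, at 58.1, 65.8 and 56.9 CPM, was also below them (log2 fold change -0.51, SE 0.15, adjusted p = 0.142, edgeR). Slc7a11, at 43.2, 38.9 and 56.0 CPM, was above them (log2 fold change 0.92, SE 0.36, adjusted p = 0.230, edgeR). The CaP libraries were above all M0 libraries for 5 of 32 genes (Hmox1, Blvrb, Slc7a11, Gpx4 and Srxn1), against 7.29% of all genes, and below them for 3 (Abcc1, Mgst1 and Txnip), against 10.1%.

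Of the 11 genes other than Nqo1 that rose in M1, 8 had positive and 3 negative log2 fold changes with CaP, from -0.38 to 0.92, with a median of 0.20. Without M0 replicate 1, which both comparisons share, 7 were positive, with a median of 0.07. Gsr was at 17.4, 19.3 and 16.0 CPM (log2 fold change -0.21, 95% interval -0.63 to 0.21), Txnrd1 at 25.0, 33.1 and 23.7 CPM (-0.15, -0.55 to 0.25) and Gclm at 17.4, 12.9 and 11.3 CPM (-0.38, -0.96 to 0.21). All 3 overlapped with M0. Prdx1 was at 2048, 1870 and 1841 CPM, with a log2 fold change of 0.20 (95% interval -0.14 to 0.54). Nfe2l2 was at 65.6, 79.6 and 74.5 CPM (-0.31, 95% interval -0.68 to 0.06) and Keap1 at 28.0, 40.6 and 32.6 CPM (-0.39, 95% interval -0.86 to 0.09). Without M0 replicate 1 the log2 fold change was 0.07 for Prdx1, -0.08 for Gclm, -0.27 for Txnrd1, -0.17 for Nfe2l2 and -0.19 for Keap1. Blvrb was at 66.3, 53.1 and 62.3 CPM with CaP and Srxn1 at 10.7, 14.1 and 10.6 CPM, both above M0. Prdx5 was at 430, 324 and 364 CPM and Prdx3 at 125, 145 and 123 CPM. Glrx was at 207, 205 and 187 CPM and Me1 at 3.14, 3.02 and 2.99 CPM, and all 4 overlapped with M0. Abcc1 was at 34.8, 42.0 and 35.3 CPM, below M0. The intervals leave room for changes of a size that this test could miss.

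SiO2 microrods gave no call among the 32 redox genes with edgeR, against 0.0602% of all genes tested, and none with DESeq2, against 0.778%. An unadjusted p below 0.05 was reached by 7 genes, against 9.27% of all. The median log2 fold change was 0.13, against -0.02 over all genes tested. Without M0 replicate 1 it was -0.03, against 0.02, so the list no longer lay above all genes. Hmox1 was at 144, 152 and 141 CPM, above all M0 libraries, with a log2 fold change of 0.83 (95% interval 0.31 to 1.36, adjusted p = 0.358, edgeR), or 0.59 without M0 replicate 1. The SiO2 libraries lay above all M0 libraries for 6 of 32 genes (Hmox1, Blvrb, Gpx4, Gstm1, Prdx1 and Prdx5), against 9.1% of all genes, and below them for 5 (Nfe2l2, Bach1, Abcc1, Mgst1 and Txnip), against 8.87%. Prdx1 was at 2029, 2311 and 2138 CPM (log2 fold change 0.37, adjusted p = 0.504, edgeR) and Prdx5 at 395, 356 and 353 CPM (0.40, adjusted p = 0.509, edgeR). M0 replicate 1 was the lowest M0 library for Hmox1, Blvrb, Gpx4, Gstm1, Prdx1 and Prdx5 alike. Without it, the log2 fold change of Prdx1 was 0.25 and that of Prdx5 0.28.

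Of the same 11 genes that rose in M1, 9 had positive and 2 negative log2 fold changes with SiO2, from -0.11 to 0.44, with a median of 0.18. Without M0 replicate 1, 8 were positive, with a median of 0.22. Nfe2l2 was at 70.2, 74.2 and 71.4 CPM, below every M0 library. Keap1 was at 32.3, 36.5 and 33.4 CPM, overlapping with M0. Blvrb was at 59.6, 57.7 and 62.4 CPM, above M0. Slc7a11 was at 40.7, 24.0 and 34.4 CPM, Gclm at 19.2, 15.3 and 19.6 CPM and Gsr at 18.4, 26.7 and 19.3 CPM, and these genes of glutathione supply all overlapped with M0. Txnrd1 was at 25.8, 28.7 and 29.5 CPM, Srxn1 at 10.3, 13.0 and 12.5 CPM and Prdx3 at 114, 137 and 117 CPM, with overlap as well. Glrx was at 179, 228 and 182 CPM and Me1 at 3.23, 2.87 and 3.84 CPM, and both overlapped with M0. Below M0 were Mgst1 at 6.46, 5.82 and 7.61 CPM, Txnip at 59.0, 67.2 and 70.2 CPM and Abcc1 at 38.2, 39.0 and 37.3 CPM.

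No redox gene was called between the microrod types. Between CaP and SiO2, 0 of 32 genes were called with edgeR or DESeq2, against 0.0241% and 0.0964% of all genes, and 0 had an unadjusted p below 0.05, against 1.87%. The CaP libraries lay above all SiO2 libraries for 2 genes, against 3.42% of all, and below them for 2, against 4.68%. Hmox1 was 1 of those above, by a log2 fold change of 0.31 with a 95% interval from -0.21 to 0.83. For Mgst1 the difference was -0.53 (95% interval -1.09 to 0.02), for Slc7a11 0.48 (-0.32 to 1.27) and for Nfe2l2 0.02 (-0.34 to 0.39). Differences inside these intervals remain possible.

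**Figure D4:**
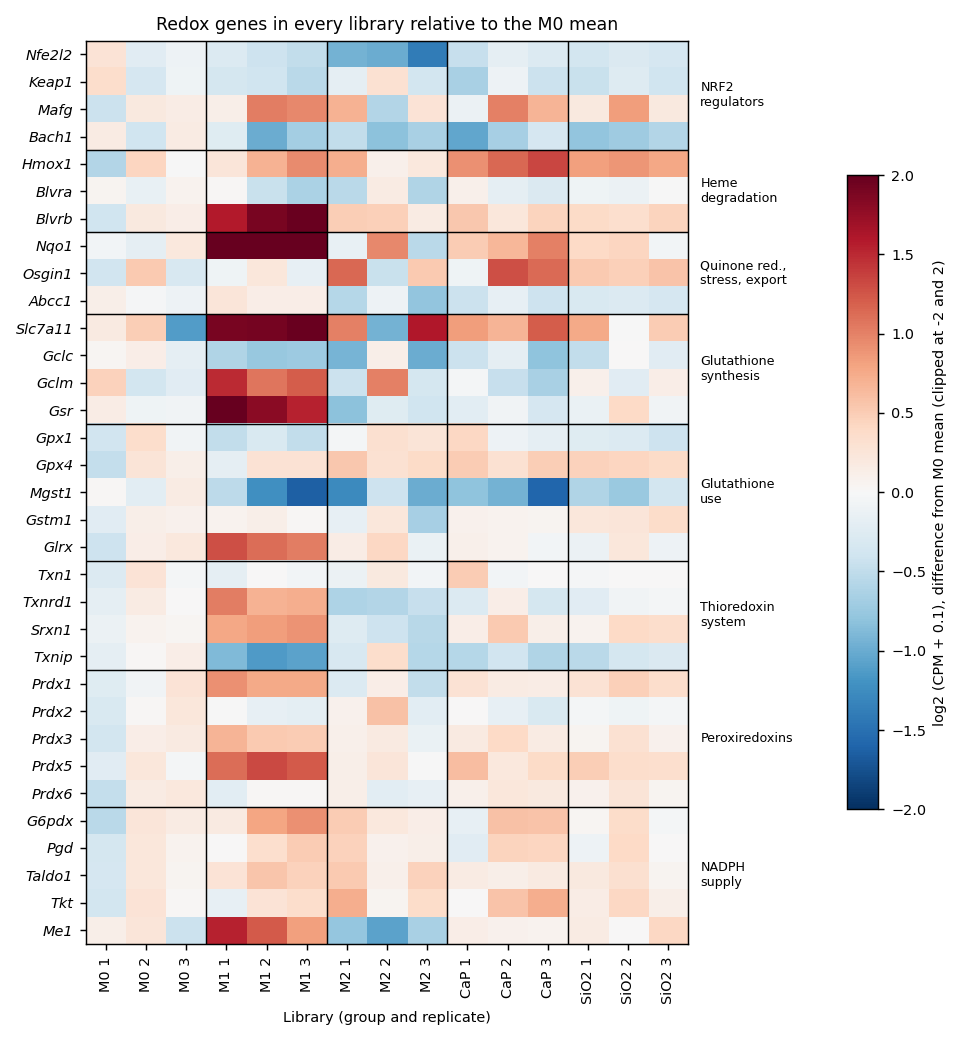
Level of each redox gene (rows, grouped by role) in each of the 15 libraries (columns), as the difference of log2 (CPM + 0.1) from the M0 mean, red for higher and blue for lower, with colours clipped at -2 and 2. The M1 columns hold red for Blvrb, Nqo1, Slc7a11, Gsr and Prdx5 and blue for Txnip, Nfe2l2 is blue in M2, Hmox1 is red in CaP and SiO2, and M0 1 is the lowest M0 library in 21 rows.

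Across the 5 groups, the M1 mean was the highest for 17 of 33 redox genes, against 30.9% of all genes tested, and the M0 mean the lowest for 14, against 24%. M0 replicate 1, the lowest M0 library for 21 of the 33, enters these M0 means, and the count was not repeated without it. The M2 mean was the highest for 2, against 20.7% of all, and the lowest for 9, against 17.1%. The CaP mean was the highest for 6, against 22.8%.

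A second list of 65 genes of the same pathways was read beside these, and 53 of its genes were tested with M1 and M2. It was written from general knowledge, but with earlier results of these data known. Its counts are therefore not an independent check of the redox genes above, and the shares of all genes only describe the background. LPS with IFN-γ raised 13 and lowered 5, with a median log2 fold change of 0.20, and the background is that given above for M1 (14.1% called). Fth1, the ferritin heavy chain that stores iron, rose from 3679, 6490 and 5705 CPM in M0 to 16285, 20382 and 22100 CPM in M1 (log2 fold change 1.89, SE 0.20, adjusted p = 2.04e-05, edgeR). Sod2, the mitochondrial superoxide dismutase, rose from 137, 144 and 150 CPM to 517, 523 and 523 CPM (log2 fold change 1.86, SE 0.13, adjusted p = 3.88e-07, edgeR). The glutathione transferase Gstt1 had 5, 1 and 2 counts in M0 and 73, 62 and 51 counts in M1. It did not pass the filter on low counts in the microrod model, so its call in M1 also leaned on the filter. Gstm2 rose from 1.16, 1.89 and 1.16 CPM to 7.74, 7.04 and 6.22 CPM (log2 fold change 2.34, SE 0.27, adjusted p = 4.87e-05, edgeR). Gstm2 resembles Gstm1, and how reads were split between them was not tested. With IL-4, 1 of the 53 genes rose and 1 fell with edgeR, Ephx1 and the superoxide dismutase Sod1, against the 4.13% of all genes given above. DESeq2 called 5 (2 higher and 3 lower), against 5.98% of all genes. Between M1 and M2, 10 were higher and 3 lower in M1, against 10.6% and 5.46% of all genes.

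Ephx1, the microsomal epoxide hydrolase, was the exception with microrods. It was at 48.9, 55.2 and 61.2 CPM in CaP, above every other library of the study, and at 16.8, 16.8 and 21.3 CPM in M0. It was 3.02-fold higher than in M0 (log2 fold change 1.60, SE 0.18, adjusted p = 0.00716, edgeR), and it was the only 1 of the 51 genes of the second list tested there that edgeR called with CaP, against 0.409% of all genes. DESeq2 called 4 of them, Ephx1 and Sqstm1 higher and Mgst2 and Abcc5 lower, against 4.15% of the genes for which it gave an adjusted p. With SiO2 none of the 51 was called, and Ephx1 was at 27.2, 22.9 and 29.4 CPM. Between CaP and SiO2 edgeR called none of them, with an adjusted p of 0.230 for Ephx1. DESeq2 gave Ephx1 a log2 fold change of 1.05 there (adjusted p = 1.09e-04) and called 0.0964% of all genes. In M1 it fell to 4.13, 3.83 and 3.50 CPM (log2 fold change -2.25, SE 0.22, adjusted p = 1.13e-05, edgeR). In M2, at 28.9, 39.2 and 24.2 CPM, it rose 1.67-fold (adjusted p = 0.0495, edgeR).

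Markers of the stimuli moved with these results. Genes known to respond to LPS and IFN-γ summed to 432 to 532 CPM in M1 and to at most 8.77 CPM elsewhere. The M1 means were 411 CPM for Il1b, 51.4 for Il6, 15.8 for Cxcl10 and 6.20 for Nos2, and Cxcl9 was at 0. IL-4 response genes summed to 1612 to 1989 CPM in M2 and at most 37.8 CPM elsewhere. The M2 means were 1550 CPM for Arg1, 196 for Clec10a, 27.6 for Mrc1 and 22.7 for Ccl24. Retnla reached at most 0.263 CPM. Markers of other cell types were near 0 in all groups. The sums over 4 epithelial, 4 fibroblast, 4 T cell and 3 B cell markers were at most 0.430 CPM. Those over 3 endothelial markers were 1.26 to 1.55 CPM in M1, 0.92 to 1.77 CPM in M2 and at most 0.92 CPM in the other groups. The 4 neutrophil markers summed to 0.777 to 1.504 CPM in M1 and at most 0.554 CPM elsewhere, with Ly6g and S100a9 at 0 in all M1 libraries. Their part in the results was not tested.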

How the data were processed

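The authors made Smart-seq2 libraries of poly-A RNA from 100 ng, sequenced them, quantified reads with STAR and Salmon on the Ensembl annotation (build GRCm39 per the labels), and deposited raw counts per gene, whole numbers without normalization. Salmon estimates counts, so these may be rounded estimates, and the library type keeps no molecular identifiers, so precision from counts covers counting error only. All 15 columns were matched to samples by name, and 0 were left unused. Of the 78317 identifiers, 51487 were given a symbol from GENCODE M21, another release, which also gave transcript lengths; its coordinates were not used. Promoter windows came from RefSeq on GRCm38.p6.

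The 33 genes, the second list and their roles were chosen with earlier results of these data known. All 33 are accounted for. Values in every library are given for genes called in any comparison and for Nfe2l2, Keap1, Hmox1 and Nqo1. Of the second list, up to 5 called genes with the largest change, a mean of at least 5 CPM in a group and no overlap are named for each comparison. Other genes were named after their values were seen.

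The tests used edgeR 4.0.16 under R 4.3.3 (filterByExpr by group, TMM, quasi-likelihood without the legacy option, Benjamini-Hochberg), as in the 2 models of the report, and with DESeq2 1.42.0. The code was tried on simulated counts. Library totals of 8459643 to 68750050 make low genes least precise in the smallest libraries, where the floor of 3 counts reaches 0.395 CPM. The chi-square per gene between replicates was 6.91 to 134.8, above sampling noise in each of the 15 pairs. Exact permutation of 3 against 3 libraries (two-sided) cannot go below 0.1, so p-values come from the models. Deviations from the group means correlated at 0.292, 0.275 and 0.206 in same-numbered M0 and M1 libraries. With different numbers, M0 and M1 libraries ran from -0.313 to 0.068. Their numbers were therefore tried as pairs, a choice that rests on the data and not on the labels. Differently numbered libraries of other groups correlated up to 0.729 (M0 replicate 3 with SiO2 replicate 2), so these values cannot show that wells were paired. The alternatives were DESeq2, its size factors in edgeR, no filter, at least 10 counts in every library, a replicate block, other libraries in the model, no fold threshold and each library left out in turn. The legacy quasi-likelihood and the block with only the 6 libraries of M1 and M0 were added after seeing the data.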

Additional observations from a re-analysis of the deposited data

How the results depend on the processing

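The number of redox genes called in M1 against M0 (14) was 11 to 14 with 1 library left out. Over all genes, 1121 to 1447 were then called higher and 352 to 617 lower, against 1615 and 727 in the main fit. In M1 against M2 (13) it was 10 to 13 and fell to 8 with only the 6 libraries compared. Calls over all genes fell there too, from 1769 higher and 910 lower of 16654 to 907 and 470 of 15305. In M2 against M0 (1) it was 1 to 5 with 1 library left out, the 5 without M2 replicate 2 (7.95% of all genes). It was 2 with DESeq2 (5.98%), 2 without a filter and 0 with only the 6 libraries. Over all genes, 764 were called higher and 377 lower of 52647 without a filter. With the 6 libraries these were 71 and 27 of 15425, against 333 and 354 of 16654 in the main fit. In CaP against M0 (0) it was 0 to 2 with 1 library left out. It was 1 without M0 replicate 2 (1.96% of all genes) and 2 without CaP replicate 1 (4.47%). It was 3 with DESeq2 (4.15%) and 1 without a filter, where 102 genes were called higher and 76 lower of 45324. SiO2 against M0 and CaP against SiO2 gave 0 under each alternative run, where DESeq2 called 0.778% and 0.0964% of all genes. The cause was not tested.

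With the replicate number as a block, 14 redox genes were called in M1 against M0, 1 in M2 against M0, 12 in M1 against M2 and 0 in each microrod comparison. Over all 16654 genes, the block called 1511 higher and 610 lower in M1 against M0. These counts were 260 and 244 in M2 against M0 and 1572 and 787 in M1 against M2. With CaP against M0, 26 and 2 of 16621 were called. Of the groups compared, only M0 and M1 were tried as pairs, which the labels do not give. With the block in a model of their 6 libraries alone, 15 redox genes were called, Mafg and G6pdx among them, against 16.9% of all genes. In M2 and SiO2, which were not compared, the 3 pairs also correlated above 0.1 (0.128, 0.506 and 0.420). In the other groups compared, values ran from -0.704 to 0.604 and no 3 pairs were all above 0.1.

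For 45 values of named genes, 551 of 607 alternatives kept the direction and the side of the threshold, 43 lost a call, 5 gained one and 8 changed sign. The sign changes were all of values not called. With 1 library left out, the log2 fold change of Keap1 in M2 against M0 was -0.28 to 0.13 (0.07 without M2 replicate 3), that of Nqo1 in M2 against M0 -1.02 to 0.71, that of Nfe2l2 in CaP against SiO2 -0.054 to 0.084 (-0.0003 without CaP replicate 3) and that of Keap1 in CaP against SiO2 -0.19 to 0.085 (0.036 without SiO2 replicate 2). Keap1 in CaP against SiO2 was 0.021 without a filter. Nqo1 had at most 25 counts in a library and only 2 in the deepest, M2 replicate 3, so its values are imprecise.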

Other observations

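Some pairs of redox genes kept or changed their proportion between groups. The ratios are of raw counts within a library, were chosen after the values were seen and are given without a test.

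The ratio of Nfe2l2 to Keap1 counts was 1.97, 2.22 and 2.06 in M0, 2.16, 2.04 and 2.13 in M1, 2.34, 1.96 and 2.29 in CaP and 2.17, 2.03 and 2.14 in SiO2 libraries. In M2 it was 1.21, 0.835 and 1.01, below every other library.

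Gclm and Gclc encode the subunits of 1 enzyme. The ratio of Gclm to Gclc counts was 3.86, 2.04 and 2.79 in M0, 12.5, 10.4 and 11.2 in M1 and 4.11, 5.37 and 4.54 in M2. It was 3.82, 2.36 and 3.23 in CaP and 4.40, 2.46 and 3.71 in SiO2. All M1 libraries lay above all others.

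The ratio of Txnrd1 to Txn1 counts, the reductase over its substrate, was 0.0711, 0.0619 and 0.0692 in M0, 0.154, 0.108 and 0.114 in M1 and 0.0474, 0.0387 and 0.0503 in M2. These 3 groups did not overlap, with M2 lowest and M1 highest. The ratio was 0.0388, 0.0758 and 0.0520 in CaP, overlapping with M0 and M2, and 0.0581, 0.0634 and 0.0645 in SiO2, overlapping with M0.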
